A study of Gallus gallus with 12 samples.

Results

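The cells described here are the GFP-negative cells sorted from electroporated chicken embryos at Hamburger-Hamilton stages HH4-5, when the embryo is a gastrula with a primitive streak. They are 6 of the 12 libraries of the study, 3 from each of its 2 arms, and were chosen by their labels alone. All embryos had received a GFP expression vector by electroporation. In the knockdown arm it was delivered with constructs meant to delete chick miR-302 (the samples are labelled "chicken miR-302 knocked-down"), and in the overexpression arm with constructs that make human miR-302. GFP-negative cells are the neighbours of the GFP-positive cells in those embryos. They are not cells of untreated embryos, and GFP itself could not be checked in a small RNA table. The labels name neither the promoter of the constructs nor the number of embryos behind a library. They do not say that replicates came from separate embryos or pools, so p-values measure the spread among these libraries alone, part of which may be technical. Each library is a mixture of all GFP-negative cells, and fewer cells of a type cannot be told apart from less RNA per cell.

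MicroRNAs are cut from hairpin precursors and repress mRNAs that pair with their seed. The miR-302/miR-367 cluster is the hallmark of pluripotent and early embryonic cells, and the miR-17/miR-92 clusters mark proliferating cells. By contrast, let-7 marks differentiating tissue, miR-126 endothelium, miR-122 liver, miR-1 and miR-206 muscle, and miR-9 and miR-124 neural cells. Values are normalized reads per hairpin, that is, reads divided by 1 factor per library, with no correction for length. An order of levels is therefore an order of read shares and not of molecules.

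The 6 libraries differed in depth. The 3 knockdown-arm libraries held 277633 to 435716 hairpin reads, while overexpression-arm replicates 1, 2 and 3 held 7546, 52653 and 277637. In overexpression-arm replicate 1 a single read was worth 3.91 normalized reads, and a hairpin with no read there could have stood at up to 11.7 (the limit of 3 reads, counting error only). Of 850 hairpin names, 610 had a read in at least 1 of the 6 libraries and 162 in every one. The test took in 129 hairpins, those whose 6-library mean reached 10 normalized reads. A hairpin could pass this filter through high values in 1 arm or 1 library alone. Thinned to 7546 reads each, the knockdown-arm libraries would have shown 148.3 to 150.7 hairpins and overexpression-arm replicates 2 and 3 170.9 and 160.3. Overexpression-arm replicate 1 showed 255 at that depth, so its reads were spread over more hairpins than those of the other 5.

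The baseline ranking was led by 2 groups of hairpins. gga-mir-92-2 took the largest mean share of the hairpin signal, 17.3% ± 3.01 (SD, n = 6), and ranked first in 4 libraries, with rank 2 in knockdown-arm replicate 3 and rank 3 in knockdown-arm replicate 1. gga-mir-302b followed with 13.6% ± 4.50 and was first in the other 2. gga-mir-302d (11.4% ± 3.38), gga-mir-302a (9.69% ± 2.80) and gga-mir-92-1 (7.24% ± 1.89) completed the leading 5, which together held 59.3% ± 6.71 of the signal. These 5 were the leading 5 of every library, in differing order.

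Behind them stood hairpins with mean shares of 3.08% and below. gga-mir-21, a miRNA known from growth and stress responses, held 3.08% ± 0.445, and gga-mir-26a, whose gene lies within CTDSPL, held 3.01% ± 0.990. gga-mir-2954 (2.35% ± 1.496), gga-mir-302c (2.21% ± 0.531), gga-mir-30d (2.14% ± 0.268), gga-mir-454 (2.02% ± 0.813), gga-mir-26a-2 (1.93% ± 0.543), gga-mir-30e (1.74% ± 0.191) and gga-mir-363 (1.47% ± 0.386) came next. After them the share dropped by a step, to 0.707% ± 0.236 for gga-mir-30a. Neighbours in this order from gga-mir-302c to gga-mir-26a-2 differed by less than their spread between libraries. gga-mir-30d kept to ranks 9 to 11, with 761.9 to 992.0 normalized reads.

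**Figure D1:**
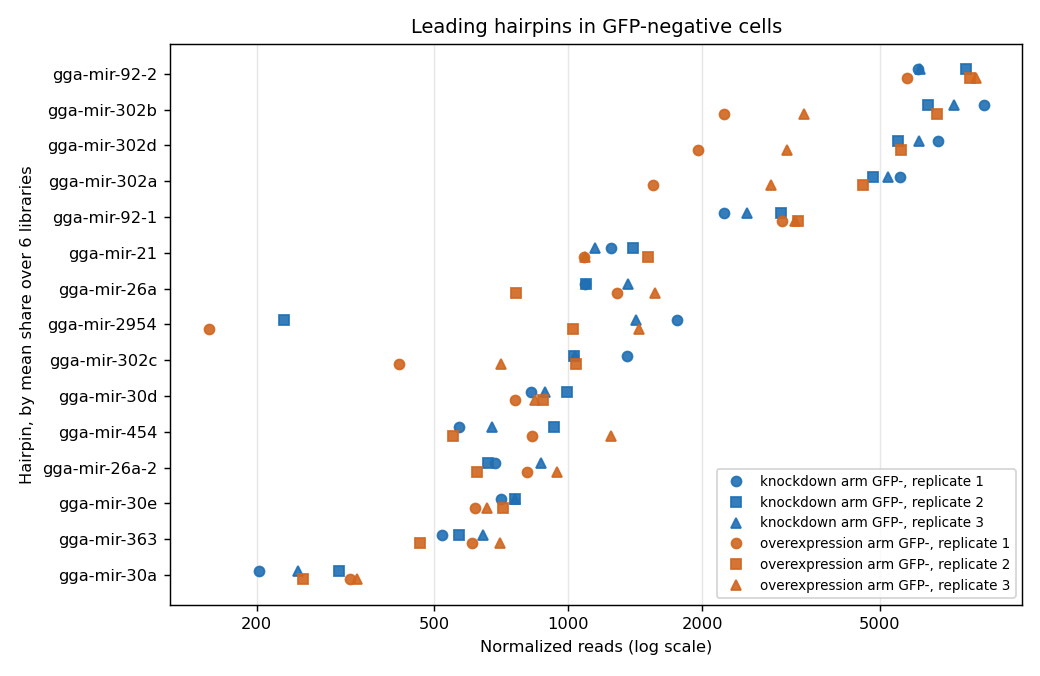
Normalized reads (log scale) of the 15 hairpins with the highest mean share, 1 point per GFP-negative library (blue knockdown arm, orange overexpression arm; circle, square and triangle for replicates 1, 2 and 3). The miR-302 hairpins of overexpression-arm replicates 1 and 3 lie left of the other 4 libraries, and gga-mir-2954 lies far left in knockdown-arm replicate 2 (230.4) and overexpression-arm replicate 1 (156.3).

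The top of the ranking was short and shared. The 10 hairpins with the highest mean share held 72.1% ± 6.40 of the signal, from 61.8% in overexpression-arm replicate 1 to 77.3% in overexpression-arm replicate 2, and 37 hairpins held 90% of the mean share. Of the 12 hairpins that reached the first 10 of any library, 7 were in the first 10 of all 6. Of the 69 that reached the first 50 of any library, 38 were in the first 50 of all 6. Across the 129 tested hairpins, Spearman's rho between 2 knockdown-arm libraries was 0.881 to 0.925, and overexpression-arm replicate 1 had 0.639 to 0.795 with the other 5. These correlations are across hairpins, which share library and depth, and are given as a description. Overexpression-arm replicate 2 had a rho of 0.868 to 0.916 with the knockdown-arm libraries, against 0.648 and 0.890 with replicates 1 and 3 of its own arm. Replicate 3 of that arm had 0.85 to 0.938 with the knockdown-arm libraries, so likeness to them was not particular to replicate 2.

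By family, the 5 hairpins of the miR-302/miR-367 cluster took 37.0% ± 11.1 (n = 6) of the signal and the 12 hairpins of the miR-17, miR-92, miR-106 and miR-25 families 27.5% ± 5.17. RefSeq (GRCg7b) places gga-mir-302a, b, c and d, gga-mir-367 and gga-mir-1811 as close neighbours on chromosome 4, within LARP7. Reads were spread unevenly over this cluster. gga-mir-367 had 24.0 ± 8.63 and gga-mir-1811 54.9 ± 21.1 normalized reads, against 5777 ± 2436 for gga-mir-302b (SD, n = 6). Within the cluster the ratio of gga-mir-302d to gga-mir-302b was 0.790 to 0.912 and that of gga-mir-302a to gga-mir-302b 0.648 to 0.842. That of gga-mir-302c to gga-mir-302b ranged relatively more widely, from 0.141 in knockdown-arm replicate 3 to 0.187 and 0.209 in overexpression-arm replicates 1 and 3.

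The miR-92 hairpins come from 2 clusters, gga-mir-92-1 from chromosome 1 with gga-mir-17, gga-mir-18a, gga-mir-19a, gga-mir-20a and gga-mir-19b, and gga-mir-92-2 from chromosome 4 with gga-mir-363, gga-mir-106, gga-mir-18b, gga-mir-20b and gga-mir-19b-2. Where copies have near-identical mature strands (also let-7a, miR-9, miR-122, miR-218, miR-1a and miR-30c, among others), the split of reads between them is uncertain. The other members were lower than miR-92. The highest of them, gga-mir-363, had 585.2 ± 85.3 normalized reads (SD, n = 6). gga-mir-17 with 37.3 ± 7.48 and gga-mir-19b with 35.5 ± 6.96, both chosen after their values were seen, were far lower. The 8 members of the miR-26 and miR-30 families added 10.5% ± 2.14 of the signal.

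Markers of differentiated cells were low but present. The let-7 and miR-98 hairpins together took 0.884% ± 0.369 (n = 6), the neural list 2.90% ± 0.640, the muscle and cardiac list 1.30% ± 0.802, the mesenchyme list 0.668% ± 0.262, the endoderm and liver list 0.445% ± 0.320 and the epithelium list 0.256% ± 0.113. The blood list, in which gga-mir-223 was the single member tested, had 0.0385% ± 0.0382. Within the neural list the largest hairpins were gga-mir-218-2 (236.0 ± 40.7 normalized reads) and gga-mir-218-1 (205.1 ± 28.1), whose genes lie within SLIT3 and SLIT2. gga-mir-9-2, chosen after its values were seen, had 33.9 ± 7.47, and it is 1 of several tested miR-9 copies. By mean share gga-mir-9-3 held 0.101%, gga-mir-9-2 0.0855%, gga-mir-9-4 0.0736% and gga-mir-9-1 0.0518%. gga-mir-218-2 held 0.598%, gga-mir-218-1 0.512% and gga-mir-128-1 0.358%. gga-mir-124a-2, chosen after its values were seen, held 0.0335%. The list also holds miR-7 hairpins (gga-mir-7-1 with 0.297% and gga-mir-7b with 0.171%), so most of its share lay outside miR-9 and miR-124. The muscle signal was nearly all miR-1, and gga-mir-1a-1 varied from 119.4 in knockdown-arm replicate 1 to 541.2 in overexpression-arm replicate 3. miR-1 was high in replicates 2 and 3 of the knockdown arm and replicate 3 of the overexpression arm, so it did not follow the arms.

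**Figure D2:**
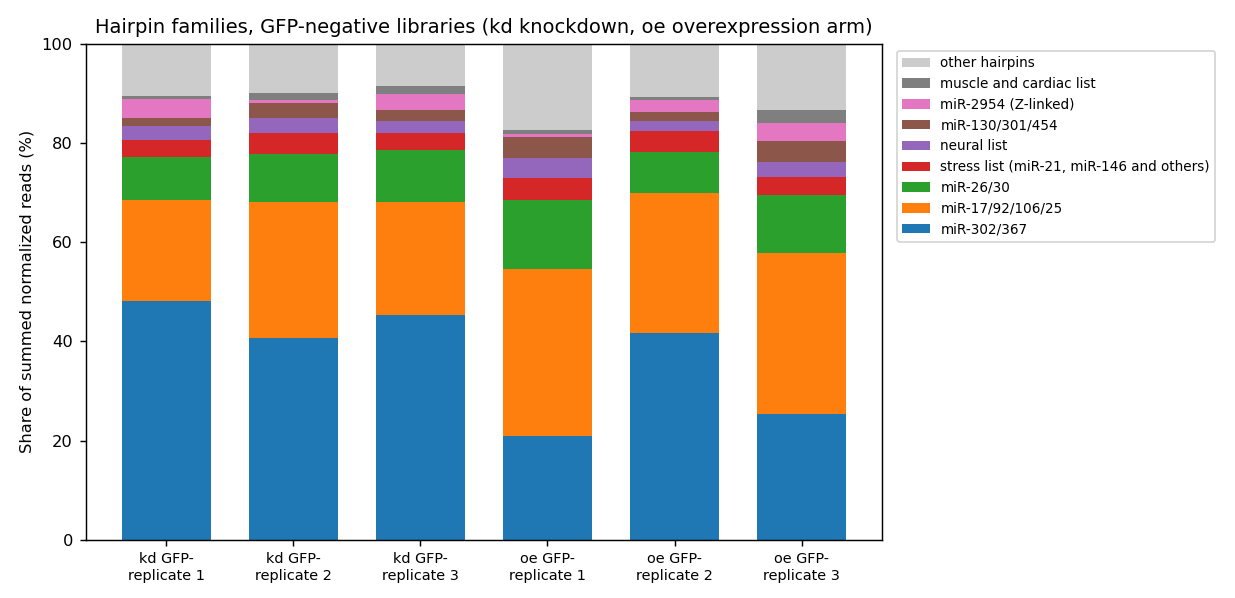
Share of each GFP-negative library's summed normalized reads (%, stacked to 100) held by hairpin families and lists. The miR-302/miR-367 block takes 40.7 to 48.1% in the knockdown-arm libraries, 41.6% in overexpression-arm replicate 2, and 21.0% and 25.3% in overexpression-arm replicates 1 and 3.

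The hairpin whose rank moved most among the leading 10 was gga-mir-2954, which is known from birds as a Z-linked miRNA that is higher in males. It was 6th to 8th in 4 libraries, 24th in knockdown-arm replicate 2 and 26th in overexpression-arm replicate 1. Its levels were 1753, 230.4 and 1421 normalized reads in knockdown-arm replicates 1, 2 and 3, and 156.3, 1026 and 1442 in overexpression-arm replicates 1, 2 and 3. The 2 low libraries come from different arms, and the groups overlapped (limma adjusted p = 0.958).

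The same 2 libraries stood apart in 1 of the 2 tested hairpins that RefSeq places on the W chromosome, which in birds only females carry. gga-mir-7b, within the gene HNRNPKL, had 267.0 normalized reads in knockdown-arm replicate 2 and 117.2 in overexpression-arm replicate 1, and 0.999 to 3.28 in the other 4. It passed the minimum mean only through those 2 libraries, so its place among the tested W hairpins was fixed by them. The other W hairpin, gga-mir-122-2, did not show this pattern. It had 66.67, 20.48 and 18.68 normalized reads in knockdown-arm replicates 1, 2 and 3. In overexpression-arm replicates 1, 2 and 3 it had 3.91 (1 read), 19.7 and 13.0. It is a near-identical copy of gga-mir-122-1 on the Z chromosome, and the split of reads between the 2 is uncertain. In the GFP-positive cells gga-mir-7b had 89.9 and 120.3 in the libraries of the same 2 numbers, and 1.73 and 3.35 in knockdown-arm replicates 1 and 3. It had no read in overexpression-arm replicates 2 and 3, which at their depth allows up to 73.1 and 47.6 normalized reads. Other Z hairpins were mixed. Of the 9 tested Z hairpins, 4 (44.4%) had their 2 lowest values in GFP-negative knockdown-arm replicate 2 and overexpression-arm replicate 1. gga-mir-2954 is among these, and since its own low values had singled out the 2 libraries, its place in the count was fixed in advance. gga-mir-2131, also among them, shares the close neighbour gga-mir-1583 with gga-mir-2954, so the 4 are not separate observations. Outside Z and W the count was 6 of 117 (5.13%). The difference was not tested and is no support for a pattern of the whole chromosome. gga-mir-31 had 32.6 and 11.7 in the same 2 GFP-negative libraries and 57.4 to 88.5 in the other 4. gga-mir-2131 had 8.66 and 3.91 there (the latter 1 read), against 16.4 to 21.5. gga-mir-23b was only narrowly lowest there (78.0 and 66.4, against 80.1 to 103.6). Its cluster partner gga-mir-27b was lowest in knockdown-arm replicate 2 (9.77) but highest in overexpression-arm replicate 1 (31.3, on 8 reads). gga-mir-7b, gga-mir-31 and gga-mir-2131 were singled out after their values were seen, and the sex of the embryos is not labelled.

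**Figure D3:**
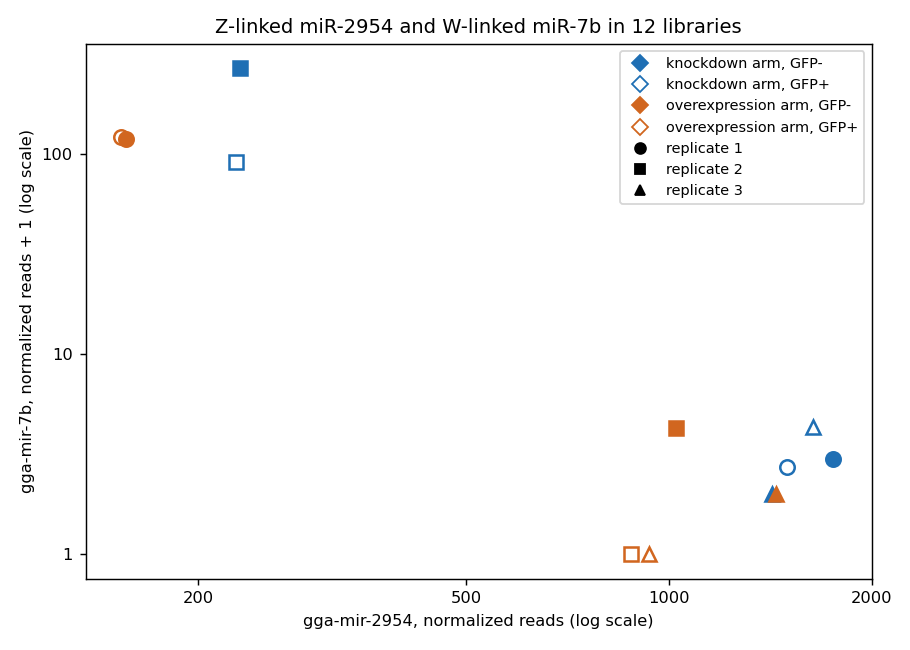
Normalized reads of Z-linked gga-mir-2954 against W-linked gga-mir-7b (plus 1, both log scales) in all 12 libraries, filled for GFP-negative and open for GFP-positive cells. Replicate 2 of the knockdown arm and replicate 1 of the overexpression arm sit at upper left in both sorted fractions, and the other 8 libraries at lower right; the open symbols at 1 are libraries with no gga-mir-7b read.

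The second question was how the GFP-negative cells of the 2 arms differed. Limma called none of the 129 tested hairpins at an adjusted p under 0.05 (percent called 0 in either direction). At an unadjusted p under 0.05 it had 10 hairpins (7.75% of those tested). edgeR's quasi-likelihood test on the recovered reads also called 0 (13 at an unadjusted p under 0.05), and DESeq2 called 4 higher (3.10%) and 1 lower (0.775%) in the overexpression arm. All of the higher DESeq2 calls other than gga-mir-126 had passed the minimum mean only through overexpression-arm replicate 1. Of the 129 fold estimates 66 were above 0 and 63 below, against 33 and 96 with TMM scaling and 91 and 38 with equal sums. Without overexpression-arm replicate 2, limma called 2 hairpins higher (gga-mir-126 and gga-mir-100) and 2 lower (gga-mir-302b and gga-mir-302d), each direction 1.59% of the 126 tested. The 3 libraries of one arm lay wholly above the other's for 9 hairpins (6.98%) and wholly below for 8 (6.20%).

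The smallest p belonged to gga-mir-126, the endothelial miRNA, whose gene RefSeq places on chromosome 17 within EGFL7. It stood at 128.8, 159.1 and 98.3 normalized reads in knockdown-arm replicates 1, 2 and 3, and at 410.2, 264.6 and 463.5 in overexpression-arm replicates 1, 2 and 3. All 3 overexpression-arm libraries were above all 3 knockdown-arm libraries. The means were 379.4 ± 103.0 and 128.7 ± 30.4 (SD, n = 3 each), a log2 fold of 1.54 (SE 0.299). The limma adjusted p was 0.172, so the difference did not pass over all hairpins. DESeq2 gave an adjusted p of 8.17e-06, and limma without overexpression-arm replicate 2 an adjusted p of 0.0259 (range over the 20 alternatives 8.17e-06 to 0.767). In GFP-positive cells gga-mir-126 was lower in both arms, at 48.4 ± 13.6 in the knockdown and 43.9 ± 25.5 in the overexpression arm (n = 3 each), the latter on 2 to 4 reads per library. The blood hairpin gga-mir-223 had 6.43 to 9.38 normalized reads in 5 libraries and 29.5 in overexpression-arm replicate 2. In overexpression-arm replicate 3, where gga-mir-126 was highest, it did not follow gga-mir-126, with 6.43 on 45 reads. Its value in overexpression-arm replicate 1 rested on 2 reads, too few to say whether it did so there.

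The miR-302 hairpins, which the knockdown constructs were meant to delete in the electroporated cells, gave 3 of the 10 smallest p values. gga-mir-302b had 8556, 6430 and 7328 normalized reads in knockdown-arm replicates 1, 2 and 3, and 2239, 6722 and 3390 in overexpression-arm replicates 1, 2 and 3. Overexpression-arm replicate 2 lay within the knockdown range, and the other 2 libraries of that arm lay below it. The log2 fold was -0.99 (SE 0.399, limma adjusted p = 0.547). gga-mir-302d (-0.92, SE 0.378) and gga-mir-302a (-0.93, SE 0.385) had the same limma adjusted p. For gga-mir-302a the groups did not overlap, its highest overexpression-arm value being 4584 and its lowest knockdown-arm value 4832. gga-mir-302c (-0.74), gga-mir-367 (-0.55) and gga-mir-1811 (-0.66) had fold estimates below 0 as well. As close neighbours in 1 cluster, these hairpins are not separate observations.

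Summed, the family had 22239, 17804 and 19769 normalized reads in the knockdown arm and 6193, 17946 and 10059 in the overexpression arm. The log2 difference was -0.936 (SE 0.453, ratio 0.523, exact two-sided permutation p = 0.2, where 3 against 3 allow no p below 0.1). As a share of its library the family ranged from 21.0% in overexpression-arm replicate 1 (95% Wilson interval 20.1 to 21.9, counting error only) to 48.1% in knockdown-arm replicate 1 (47.9 to 48.2). Without overexpression-arm replicate 2 the log2 difference was -1.33, and limma gave gga-mir-302b an adjusted p of 0.0259 and gga-mir-302d one of 0.0284 (range over the 20 alternatives 0.0259 to 0.997 and 0.0284 to 0.997). The GFP-positive libraries of the overexpression arm had the same order, with 1631, 3388 and 1824 normalized reads of gga-mir-302b in replicates 1, 2 and 3. These rest on 244, 139 and 115 reads. Whether reads of human miR-302 from the constructs are counted among them could not be checked.

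**Figure D4:**
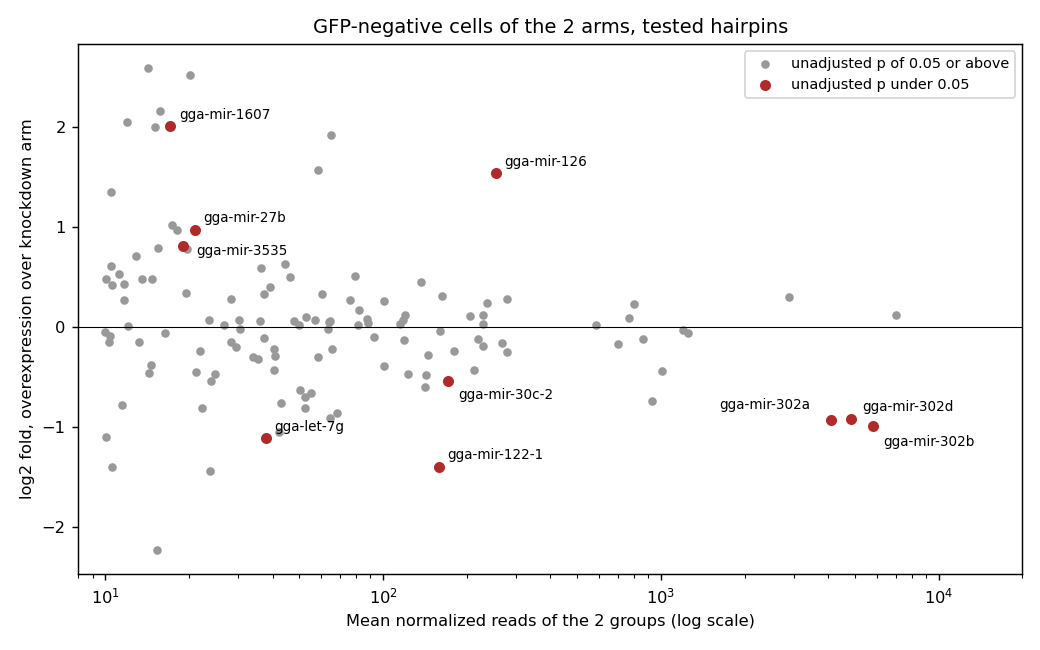
log2 fold of the overexpression over the knockdown arm (y axis) against mean normalized reads (x axis, log scale) for the 129 hairpins tested in GFP-negative cells. The 10 hairpins with an unadjusted p under 0.05 are named, and none passed adjustment.

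The other leading hairpins differed little. gga-mir-92-2 had 6683 ± 965 normalized reads in the knockdown and 7310 ± 1353 in the overexpression arm (log2 fold 0.12, SE 0.229), and TMM scaling turned the estimate to -0.20. gga-mir-92-1 had 2232 to 3000 in the knockdown arm and 3012 to 3275 in the overexpression arm, groups that did not overlap (0.31, SE 0.196, limma adjusted p = 0.642, and -0.01 with TMM scaling). The ratio of gga-mir-302b to gga-mir-92-2 was 0.825 to 1.41 in the knockdown arm, 0.845 in overexpression-arm replicate 2, and 0.389 and 0.412 in replicates 1 and 3. Of the 12 tested members of the miR-17, miR-92, miR-106 and miR-25 families, none was called, 5 had fold estimates above 0 and 7 below (median -0.03 against 0.02 for all tested hairpins), a split that became 0 and 12 with TMM scaling and 11 and 1 with equal sums. The median of all tested hairpins was -0.29 with TMM scaling and 0.28 with equal sums, and the direction of a family near 0 depends on that choice. With equal sums the median of these families turned to 0.23.

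Both miR-30c hairpins stood lower in every overexpression-arm library than in any knockdown-arm library. As copies with near-identical mature strands, they may not be separate observations. gga-mir-30c-2 had 216.8, 202.7 and 186.4 normalized reads in the knockdown arm and 121.1, 133.5 and 164.8 in the overexpression arm (log2 fold -0.54, SE 0.214, limma adjusted p = 0.547). Limma did not call it, while DESeq2 gave an adjusted p of 0.0440 (range over the 20 alternatives 0.0440 to 0.997). gga-mir-30c-1, chosen after its values were seen, had means of 244.6 in the knockdown and 180.4 in the overexpression arm (limma adjusted p = 0.547). Of the 7 tested members of the miR-26 and miR-30 families, 5 had fold estimates below 0 and 2 above, with a median of -0.12. With equal sums 2 were below and 5 above (median 0.14), and with TMM scaling all 7 were below.

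let-7 and miR-122 were lower in the overexpression arm in their estimates. All 9 tested let-7 hairpins had fold estimates below 0 under each of the 3 scalings (median -0.82, and -1.12 with TMM scaling), and none was called. Some of the 9 are copies with near-identical mature strands, so they are not 9 separate observations. gga-let-7b, chosen after its values were seen, had means of 24.3 in the knockdown and 6.37 in the overexpression arm. It passed the minimum mean only through the knockdown arm, so its sign is no support for a difference between the arms. The let-7 and miR-98 list took 0.708 to 1.49% of the knockdown-arm libraries. It took 0.504% (38 reads), 1.05% and 0.571% of overexpression-arm replicates 1, 2 and 3, so replicate 2 lay within the knockdown range. gga-let-7g had 76.2, 51.4 and 31.3 normalized reads in the knockdown arm and 23.4, 23.8 and 20.4 in the overexpression arm, on 6 reads in overexpression-arm replicate 1 (log2 fold -1.11, SE 0.362, limma adjusted p = 0.547). The groups of gga-let-7g did not overlap, while those of gga-let-7f did: it had 64.5 to 103.3 in the knockdown arm and 19.5, 101.6 and 42.6 in the overexpression arm. gga-mir-122-1 had 420.2, 182.2 and 108.3 normalized reads in the knockdown arm and 50.8, 106.5 and 81.8 in the overexpression arm (-1.40, SE 0.523, limma adjusted p = 0.547). Knockdown-arm replicate 1 was the highest library for both gga-let-7g and gga-mir-122-1.

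Both hairpins had much higher means in the GFP-positive cells of the same embryos. gga-mir-122-1 had 2518 ± 344 there in the knockdown and 1115 ± 615 in the overexpression arm, and gga-let-7g 448.8 ± 118.4 and 118.3 ± 85.1 (SD, n = 3 each). GFP-positive values of the overexpression arm rest on 1 to 21 reads per library for gga-let-7g and 30 to 118 for gga-mir-122-1. In overexpression-arm replicate 2 gga-let-7g had 24.4 in GFP-positive cells (1 read) and 23.8 in GFP-negative cells. At the depth of that GFP-positive library even no read allows up to 73.1 normalized reads, so the values cannot show whether the fractions differed.

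The 2 tested Hox-cluster hairpins had a median log2 fold of 2.05, above 0 under each scaling, and neither was called. gga-mir-10a, whose gene lies within HOXB3, had 49.3, 8.82 and 15.7 normalized reads in the knockdown arm and 11.7, 163.0 and 102.3 in the overexpression arm (log2 fold 1.57, SE 1.03, limma adjusted p = 0.642). gga-mir-10b, within HOXD3, had 10.7, 0.630 and 2.50 and then 3.91, 66.3 and 37.0 (2.52, SE 1.16, limma adjusted p = 0.547). Replicates 2 and 3 of the overexpression arm were the high libraries for both, and replicate 1 was within the knockdown range. In replicate 1 these values rested on 3 reads of gga-mir-10a and 1 of gga-mir-10b, no more than the limit of 3 reads. gga-mir-10b passed the minimum mean only through the overexpression arm. Its sign, and the median of the 2 hairpins, are therefore no support for a difference between the arms.

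The miR-99, miR-100 and miR-125 hairpins, transcribed in part together with let-7 copies, followed another order. gga-mir-100 had 10.2, 36.9 and 16.3 normalized reads in the knockdown arm and 183.6, 16.4 and 125.4 in the overexpression arm (log2 fold 1.93, SE 0.916, limma adjusted p = 0.547). It was high in overexpression-arm replicates 1 and 3, and without replicate 2 limma gave an adjusted p of 0.0259 (range over the 20 alternatives 0.0259 to 0.997). gga-mir-99a had 3.70 to 7.88 in the knockdown arm and 66.4, 0.819 and 19.6 in the overexpression arm, and was thus high in the same 2 libraries. It passed the minimum mean only through overexpression-arm replicate 1. All 4 tested members of this list had fold estimates above 0 under each scaling (median 0.90), and none was called. Like gga-mir-99a, gga-mir-125b-1 passed the minimum mean only through the overexpression arm, with means of 8.90 in the knockdown and 12.3 in the overexpression arm. The signs of these members are therefore no support for a difference between the arms. gga-mir-125b-2 had 11.3 to 14.5 in the knockdown arm and 46.9, 9.01 and 24.7 in the overexpression arm. gga-mir-100 and gga-let-7a-2 are neighbours on chromosome 24 and gga-mir-99a and gga-let-7c on chromosome 1. The fold estimates of these let-7 copies had the opposite sign, -1.06 for gga-let-7a-2 and -0.81 for gga-let-7c.

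**Figure D5:**
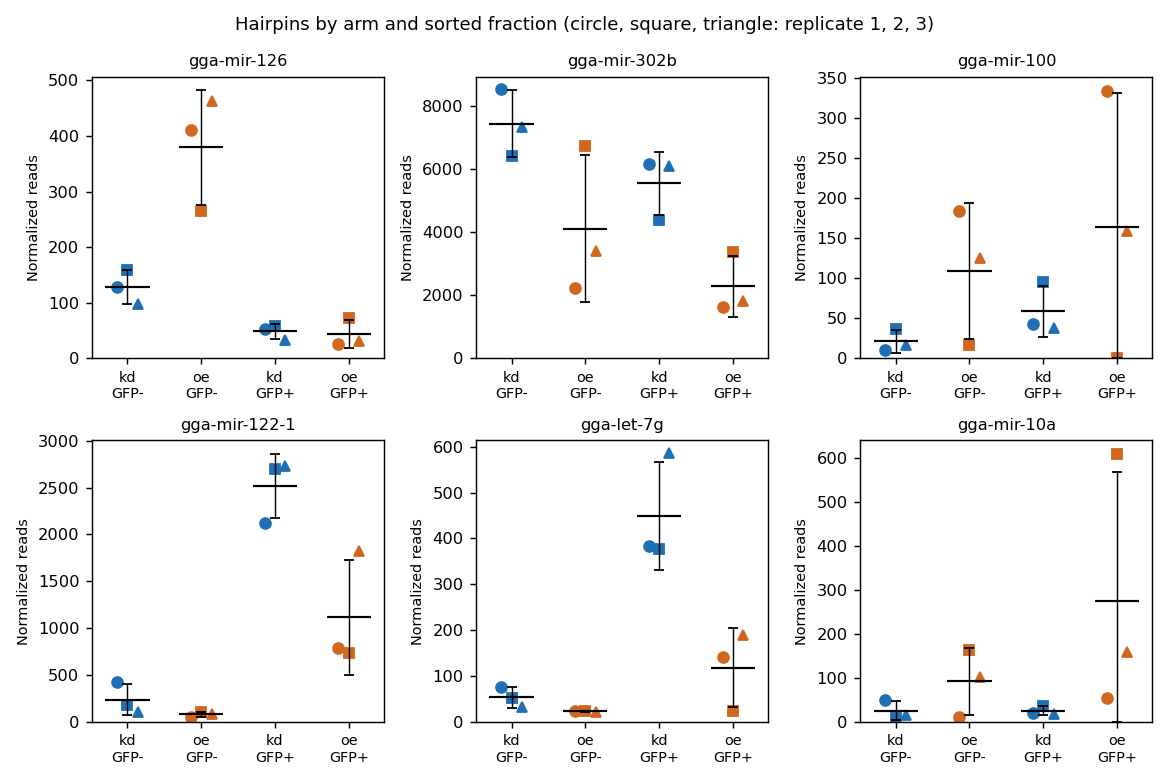
Normalized reads of 6 hairpins in the knockdown (kd, blue) and overexpression (oe, orange) arms, in GFP-negative and GFP-positive cells; points are libraries, black lines the mean and SD (n = 3, lower bars end at 0). gga-mir-126 is highest in GFP-negative cells of the overexpression arm (379.4 ± 103.0), and gga-mir-122-1 and gga-let-7g are highest in GFP-positive cells of the knockdown arm.

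Other lists showed no call. The 5 tested mesenchyme members all had fold estimates above 0 under each scaling (median 0.52), among them gga-mir-140, known from cartilage, with 64.2 ± 7.96 against 94.5 ± 28.7 normalized reads (log2 fold 0.52, SE 0.285). gga-mir-199-2 had 11.0 ± 3.18 against 25.1 ± 16.2 and gga-mir-143 115.4 ± 43.8 against 158.7 ± 57.3 (n = 3 each). gga-mir-143 and gga-mir-145 are close neighbours and gga-mir-199-1 and gga-mir-199-2 are copies, so the 5 are not separate observations. gga-mir-145, with means of 9.61 in the knockdown and 13.7 in the overexpression arm, passed the minimum mean only through the overexpression arm. Of the 13 tested neural members, 10 had estimates below 0 and 3 above (median -0.29), against 7 and 6 with equal sums and 12 and 1 with TMM scaling. This list holds gga-mir-7b, high in 1 library of each arm. gga-mir-124a-2, chosen after its values were seen, went against the list median, with means of 9.42 in the knockdown and 16.3 in the overexpression arm. Its groups did not overlap (log2 fold 0.71, SE 0.407, limma adjusted p = 0.642), but it passed the minimum mean only through the overexpression arm. The 4 muscle and cardiac, 3 epithelium and 3 stress and inflammation members had medians of -0.17, 0.07 and -0.24, whose signs changed with the scaling. gga-mir-200b, for example, had 55.2 ± 21.7 against 58.1 ± 21.0, and gga-mir-21 1265 ± 123.4 against 1229 ± 241.

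gga-mir-27b, a vascular and muscle miRNA on the Z chromosome, and gga-mir-3535, within the gene of nucleolin, stood higher in every overexpression-arm library than in any knockdown-arm library, without passing the test. gga-mir-27b had 16.1, 9.77 and 16.0 normalized reads in the knockdown arm and 31.3, 29.5 and 23.2 in the overexpression arm (log2 fold 0.98, SE 0.340). gga-mir-3535 had 11.8, 13.9 and 14.98 and then 27.3, 24.6 and 21.9 (0.82, SE 0.306), and for both the limma adjusted p was 0.547. In overexpression-arm replicate 1 the values rested on only 8 reads of gga-mir-27b and 7 of gga-mir-3535. The cluster partners of gga-mir-27b differed less: the log2 fold was 0.04 (SE 0.264) for gga-mir-23b and 0.26 (SE 0.312) for gga-mir-24, and the groups of both overlapped.

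Several of the largest folds rested on overexpression-arm replicate 1. gga-mir-1732-1 had 0.699 to 1.26 normalized reads in the knockdown arm and 74.2, 5.73 and 2.57 in the overexpression arm. gga-mir-1641 had 0.699 to 1.71 and then 82.0, 4.10 and 0.572, and gga-mir-1790 had 1.199 to 3.15 and then 74.2, 11.5 and 2.001. These were chosen after their values were seen, and rest on 19 to 21 reads in replicate 1 and 4 to 18 in the other 2 libraries of that arm. All 3 reached the minimum mean of 10 normalized reads only through replicate 1, so they entered the test because that library was high. Their calls are therefore no support for a difference between the arms. DESeq2 called all 3 (adjusted p = 0.00863, 0.0449 and 0.0449) and limma none (adjusted p = 0.547, 0.661 and 0.618), and over the 17 alternatives that tested each the adjusted p reached 0.997. gga-mir-1607, with 66.4 in replicate 1, 11.5 and 10.4 in the other 2 and 1.89 to 6.69 in the knockdown arm, had a limma adjusted p of 0.547 (log2 fold 2.02, SE 0.826). This hairpin also passed the minimum mean only through replicate 1.

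Late-numbered hairpins as a class, 631 with a number of 1400 or above and without miR-2954, took 4.96% of the signal in overexpression-arm replicate 1 (95% Wilson interval 4.49 to 5.47). In the other 5 GFP-negative libraries they took 0.801 to 1.31%. The 3 GFP-positive overexpression-arm libraries, which are also shallow with 1292 to 3856 reads, had 4.47 to 4.88%. The 4 shallowest of the 12 libraries thus had the 4 highest shares, and the part of depth in this was not tested.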

How the data were processed

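Small RNA libraries were made from sorted cells with the NEXTflex kit. The submitters' processing notes name FastQC 0.11.5, STAR 2.7.0f and cutadapt. No source used here gives the chicken build, the counting tool or how the factor per library was derived. The authors deposited a chicken-aligned table whose values are a normalized signal. In all 12 libraries 100% of values above 0 were whole multiples of 1 step (tolerance 0.01 reads), so whole reads were recovered, also in knockdown-arm replicate 3, whose step lies near 0.1. Of 911 hairpin entries 61 repeated a name, and the row with the highest mean was kept. All mature-arm entries were 0, so arms could not be told apart. RefSeq matched 779 of the 850 names and gave chromosomes and hosts only. A human-aligned table and a sheet of ratios were not used here.

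Hairpins with a mean of at least 10 over the 6 libraries were fitted with limma 3.58.1 (R 4.3.3) as log2(value + 1), 2 groups, empirical Bayes with trend, two-sided, Benjamini-Hochberg adjustment over all 129. Folds are on that scale, which understates changes of low hairpins. edgeR 4.0.16, DESeq2 1.42.0 and limma-voom were run on recovered reads as alternatives, beside TMM scaling, equal sums, other pseudocounts (0.5, 5) and minimum means (1, 50), library weights, all 12 libraries, the replicate block and leaving out libraries. The limma script was checked on simulated data. It called 3.92% of simulated hairpins with a true log2 fold of 1 in either direction, and 40.2% of those with 2. Most differences of these sizes would thus go uncalled, and 0 calls do not show that the arms are alike. Members, lists and tests were chosen with earlier results of these data known. Named hairpins were the 15 with the highest mean share, the 10 with the smallest p (as fewer than 5 were called), every miR-302, miR-367, miR-1811 and miR-2954 hairpin, up to 3 tested members with the highest mean per list and those whose rank ran from the first 10 to beyond 20; others were chosen after their values were seen.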

Additional observations from a re-analysis of the deposited data

How the results depend on the processing

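The count of 0 called hairpins in either direction held under every alternative other than DESeq2 (4 higher, 1 lower) and leaving out overexpression-arm replicate 2 (2 higher, 2 lower), so leaving out one library gave 0 to 2 in each direction. Without both libraries with high gga-mir-7b, an alternative added after the data were seen, it was 0 and the family difference -0.642. Replicate numbers showed no shared pattern between the arms: deviations from the group means correlated at -0.375, -0.364 and 0.396 for numbers 1, 2 and 3. Knockdown-arm replicate 1 with overexpression-arm replicate 2 gave 0.561. Deviations within an arm sum to 0 for each hairpin, so these correlations depend on each other. They cannot decide whether the numbers pair the libraries. The replicate block gave 0 calls and a family log2 difference of -0.936 (exact permutation p within pairs = 0.5). That difference was -0.668 with equal sums, -1.25 with TMM scaling and -1.33 to -0.563 with one library left out. The share of the leading 10 was 71.1% to 74.2% with one library left out, and 9 or 10 of the 10 were shared.

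Thinned detection was 149.3, 150.7 and 148.3 hairpins in knockdown-arm replicates 1 to 3 and 170.9 and 160.3 in overexpression-arm replicates 2 and 3, since fewer reads are drawn. The estimate of gga-mir-2954 ran from -1.36 to 0.55 with one library left out, above 0 without knockdown-arm replicate 1 (0.10) and without overexpression-arm replicate 1 (0.55), and that of gga-mir-1641 to -0.72 by limma-voom. TMM scaling turned gga-mir-92-2 (-0.20), gga-mir-92-1 (-0.011) and the medians of epithelium (-0.24), miR-15/miR-16 (-0.28), miR-130/miR-301/miR-454 (-0.19), miR-23/miR-24/miR-27 (-0.055), miR-221/miR-222 (-0.24), miR-101 (-0.26), miR-148/miR-152 (-0.14) and all tested hairpins (-0.29) below 0. Equal sums turned those of the miR-17/miR-92 families (0.23), muscle and cardiac (0.09), stress and inflammation (0.019), miR-26/miR-30 (0.14) and miR-103/miR-107 (0.026) above 0. Depth limits overexpression-arm replicate 1 most.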

Other observations

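gga-mir-489, whose gene RefSeq places within CALCR on chromosome 2, was singled out after its values were seen. It had 346.3 normalized reads (2436 reads) in knockdown-arm replicate 1 of the GFP-negative cells and 2.43 to 25.4 in the other 5 GFP-negative libraries. The GFP-positive library of the same arm and number had 13.0, so the high value was not shared between the sorted fractions of that number, unlike those of gga-mir-7b and gga-mir-2954.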
